A study of Saccharomyces cerevisiae with 7 samples.

Results

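The swr1Δ strain of budding yeast (Saccharomyces cerevisiae), which lacks the gene for Swr1, was set against its wild type on 3 of the 7 expression arrays of the series, those titled swr1-1, swr1-2 and swr1-3. They are called arrays 1, 2 and 3 here. Both strains are of the W303 background, and the only difference the labels give is the swr1 deletion in the Cy5 channel and its absence in the Cy3 channel. According to the labels the cells grew in rich glucose medium (YPD) with shaking at 25 °C into exponential phase at an optical density of 1, with no treatment, and messenger RNA was purified after hot phenol extraction. The study's methods give another growth temperature and RNA reagent for its expression arrays, and the labels were followed here. No array carried the dyes in reverse, so a fixed dye effect and an effect of the deletion cannot be told apart. The labels name neither the mating type nor the marker that replaced SWR1, and the study lists swr1 strains made with more than 1 marker. They also do not name the cultures, while the array methods describe independent cultures. If the arrays shared material, the p-values would measure only the spread between arrays. Whole cultures were compared, so a change in RNA per cell and a change in the kinds of cell in the culture cannot be told apart.

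Swr1 is the ATPase of SWR-C, a chromatin remodelling complex that exchanges histone H2A in nucleosomes for its variant Htz1, the yeast H2A.Z. Htz1 nucleosomes flank the nucleosome-poor region at many yeast promoters, and Htz1 is known for roles in gene activation, in keeping silent chromatin from spreading at chromosome ends and in chromosome segregation. Several subunits of SWR-C are shared with the histone acetyltransferase complex NuA4 and the remodelling complex INO80.

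The values are log2 ratios of swr1Δ over wild type, as the authors had normalised them, so 1 stands for 2-fold higher RNA and 0 for equal RNA. A ratio compares a gene between the strains and does not give its level, and levels of different genes cannot be set against each other. The mean of the arrays was tested against 0 with limma for 5893 features measured on at least 2 of the arrays, of which 5357 are named genes and 536 are probes without a gene symbol. At an adjusted p under 0.05, 1301 features differed from 0, or 22.1% of those tested. Of these, 659 (11.2%) were higher in swr1Δ cells and 642 (10.9%) were lower. Most changes were small. The median log2 ratio was 0.58 among the higher and -0.60 among the lower features, and 36 and 35 of them lay beyond 2-fold. Values below are mean log2 ratios ± SD with n = 3 arrays unless stated, and all adjusted p-values are those of this fit.

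The arrays differed in amplitude. Among the 1286 called features measured on every array, array 1 had the smallest ratio in 1012 and array 3 the largest in 768, and the median size was 0.39, 0.66 and 0.74 on arrays 1, 2 and 3. Over 5786 features, arrays 2 and 3 correlated at r = 0.82, and array 1 correlated with them at 0.49 and 0.45. The count of calls therefore moved with each array: without array 1 it was 3135, without array 2 it was 280 and without array 3 it was 390. Fitted together with the other arrays of the series, the test called 0 features, with 795 at an unadjusted p under 0.05.

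**Figure D1:**
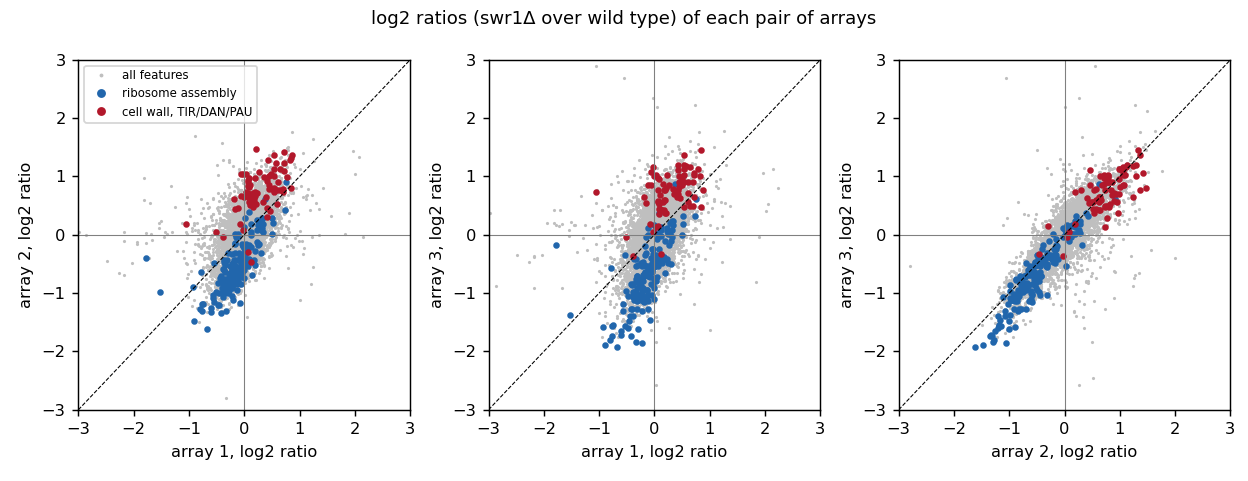
Each panel sets the log2 ratios (swr1Δ over wild type) of a pair of arrays against each other, with all features in grey, ribosome assembly genes in blue and cell wall and TIR/DAN/PAU genes in red; the dashed line marks equal ratios, and 6, 6 and 1 features lie outside the panels. Arrays 2 and 3 lie along the dashed line (r = 0.82), whereas the points of array 1 are narrower, and most blue genes lie below 0 and most red genes above 0 in each panel.

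The deleted gene was read first. SWR1 (YDR334W) gave -0.42, -1.02 and -1.01 on arrays 1, 2 and 3, or -0.82 ± 0.34 (adjusted p = 0.0230), a 1.76-fold lower signal, and without array 2 it missed the threshold (-0.72, adjusted p = 0.0618). It was below 0 on every array, but 116 of 5893 features had a lower mean, and on array 1 420 of 5846 did. The position of the probe within the gene is not known here, so it cannot be said whether it lies in the deleted part. Since the direction of the ratios was settled partly by the sign of this gene, it is no check of that direction. The genes beside SWR1 on chromosome IV were partly lower as well. On one side RQC1 (-0.46, adjusted p = 0.0448) and IRC3 (-0.45, adjusted p = 0.0418) fell and GPI8 read 0.26 (adjusted p = 0.137). On the other side MRPS28, a mitochondrial ribosomal protein gene, fell (-0.72, adjusted p = 0.0230), whereas MSN5 (-0.07, adjusted p = 0.666) and MRX8 (-0.39, adjusted p = 0.0539) did not pass the test. Of 693 features tested on chromosome IV, 52 were higher and 105 lower, where 11.2% and 10.9% of all features were. Other chromosomes also leaned to lower, such as XI (29 higher and 43 lower of 290) and XIV (30 and 51 of 372). Some leaned to higher, such as V (39 and 17 of 246).

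TRP1 (YDR007W), an enzyme gene of tryptophan synthesis that is mutated in W303 and often serves as a deletion marker, had the highest mean among the called features measured on every array. It read 1.25, 1.64 and 1.78, and the mean was 1.55 ± 0.27 (adjusted p = 0.0217), or 2.94-fold. Of the other W303 marker genes measured, CAN1, the arginine permease, was higher (0.42 ± 0.12, adjusted p = 0.0430), while ADE2 (-0.27, adjusted p = 0.123) and LEU2 (-0.12, adjusted p = 0.499) did not pass. URA3 and HIS3 were not tested here. Whether the strain on these arrays carried TRP1 at swr1 is not stated.

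Among the genes of SWR-C itself few passed the test besides SWR1. Of 13 subunit genes measured, 4 were lower and 0 were higher, SWR1 included, and their median was -0.22 against 0.00 for all features. RVB2, an AAA+ helicase shared with INO80, read -0.53, -0.52 and -0.58 on the arrays, and these were among the closest readings of the complex (-0.54 ± 0.03, adjusted p = 0.0231). BDF1, a bromodomain protein that binds acetylated histones, was at -0.62 ± 0.26 (adjusted p = 0.0275), and VPS72 (Swc2), the subunit that binds Htz1, at -0.58 ± 0.28 (adjusted p = 0.0337). ARP6 (0.10, adjusted p = 0.536), SWC7 (0.05), YAF9 (-0.06) and ARP4 (-0.13) lay near 0. SWC3 (-0.31, adjusted p = 0.119), RVB1 (-0.28, adjusted p = 0.116), SWC4 (-0.22), VPS71 (-0.19) and SWC5 (-0.14) had means below 0 and did not pass.

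HTZ1, the substrate of the complex, read 0.17, 0.39 and 0.50, above 0 on every array, but its mean of 0.36 ± 0.17 missed the threshold (adjusted p = 0.0704), which it passed without array 1 (0.45, adjusted p = 0.00319) and with the arrays scaled to a common spread (0.33, adjusted p = 0.0473). Among the 7 genes for Htz1 and its carriers, 1 was lower and 1 was higher, and these were the chaperones of the variant. CHZ1, a chaperone with a preference for Htz1, fell to -0.43, -0.90 and -1.18 (-0.84 ± 0.38, adjusted p = 0.0230). NAP1, which carries H2A and Htz1 paired with H2B, rose to 0.46, 0.45 and 0.82 (0.58 ± 0.21, adjusted p = 0.0276), but without array 2 (adjusted p = 0.106) or array 3 (adjusted p = 0.113) it did not pass. The importins KAP114 (-0.21) and KAP123 (0.19) did not pass, nor did FPR3 (-0.23) and FPR4 (-0.35, adjusted p = 0.0661). Of 9 genes for the canonical histones, linker histone and the centromeric variant, CSE4, the H3 variant of centromeres, was lower (-0.48 ± 0.21, adjusted p = 0.0411) and HTB2, an H2B gene, was higher (0.43 ± 0.15, adjusted p = 0.0430). HHT1, HHF1, HHF2, HHT2, HHO1, HTA1 and HTB1 lay between -0.28 and 0.25 and did not pass, and HTA2 was not tested. Paired histone genes share much of their sequence, so their probes may not tell the copies apart.

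Genes for other chromatin complexes were mostly lower where they passed, while 10.9% of all features were lower. In NuA4, 3 of 7 genes were lower, namely ESA1, the acetyltransferase subunit (-0.67 ± 0.25, adjusted p = 0.0230), EAF6 (-0.63) and YNG2 (-0.61). In INO80, 3 of 11 were lower, led by NHP10, its HMG-box subunit, which read -0.42, -1.03 and -1.16 (-0.87 ± 0.40, adjusted p = 0.0230), with IES2 (-0.66) and IES1 (-0.48). The remodellers SWI/SNF and RSC had 2 of 21 genes lower, the RSC subunits HTL1 (-0.90 ± 0.39, adjusted p = 0.0228) and NPL6 (-0.61). This share, 9.52%, lay near that of all features. The coactivator SAGA had 6 of 17 lower, among them HFI1 (-0.73), SPT7 (-0.64) and the deubiquitinase UBP8 (-0.53), and 1 higher (TAF9, 0.41). Over the chromatin lists joined, 24 of 92 genes (26.1%) were lower and 2 higher. Their median was -0.24, and it was -0.09, -0.29 and -0.40 on arrays 1, 2 and 3.

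Silencing factors keep the mating-type cassettes and the chromosome ends inactive. Of 16 such genes, 5 were lower and 0 higher. SAS4, a subunit of the SAS complex that acetylates H4 and limits the spread of silencing, fell to -0.56, -1.04 and -1.45 (-1.02 ± 0.44, adjusted p = 0.0227). ORC1, the origin recognition subunit that binds Sir1, was at -0.82 ± 0.48 (adjusted p = 0.0298), and SIR1 itself at -0.55 ± 0.20 (adjusted p = 0.0295). DOT1, the H3 K79 methyltransferase, was at -0.46 ± 0.13 (adjusted p = 0.0374), and the deacetylase HST1 at -0.43 (adjusted p = 0.0490). SIR2 (-0.08), SIR3 (-0.47, adjusted p = 0.0779), SIR4 (-0.37, adjusted p = 0.102) and RAP1 (0.13) did not pass.

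The mating-type cassette genes, a group chosen after their values were seen, had 4 of 6 lower and 1 higher. HMLALPHA2 read -0.41, -1.31 and -1.24 (-0.99 ± 0.50, adjusted p = 0.0230), MATALPHA2 -0.92 ± 0.50, HMRA2 -0.82 ± 0.58 and HMRA1 -0.70 ± 0.27. HMLALPHA1, measured on arrays 1 and 2 only, read 1.02 and 0.83 (0.92 ± 0.13, n = 2, adjusted p = 0.0227), while MATALPHA1 read -0.75, 0.12 and 0.23. The alpha1 probes thus did not move with the alpha2 and a2 probes. These genes share their sequence between the active MAT locus and the silent copies, so the probes cannot be assigned to 1 locus, and they are not independent of each other.

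**Figure D2:**
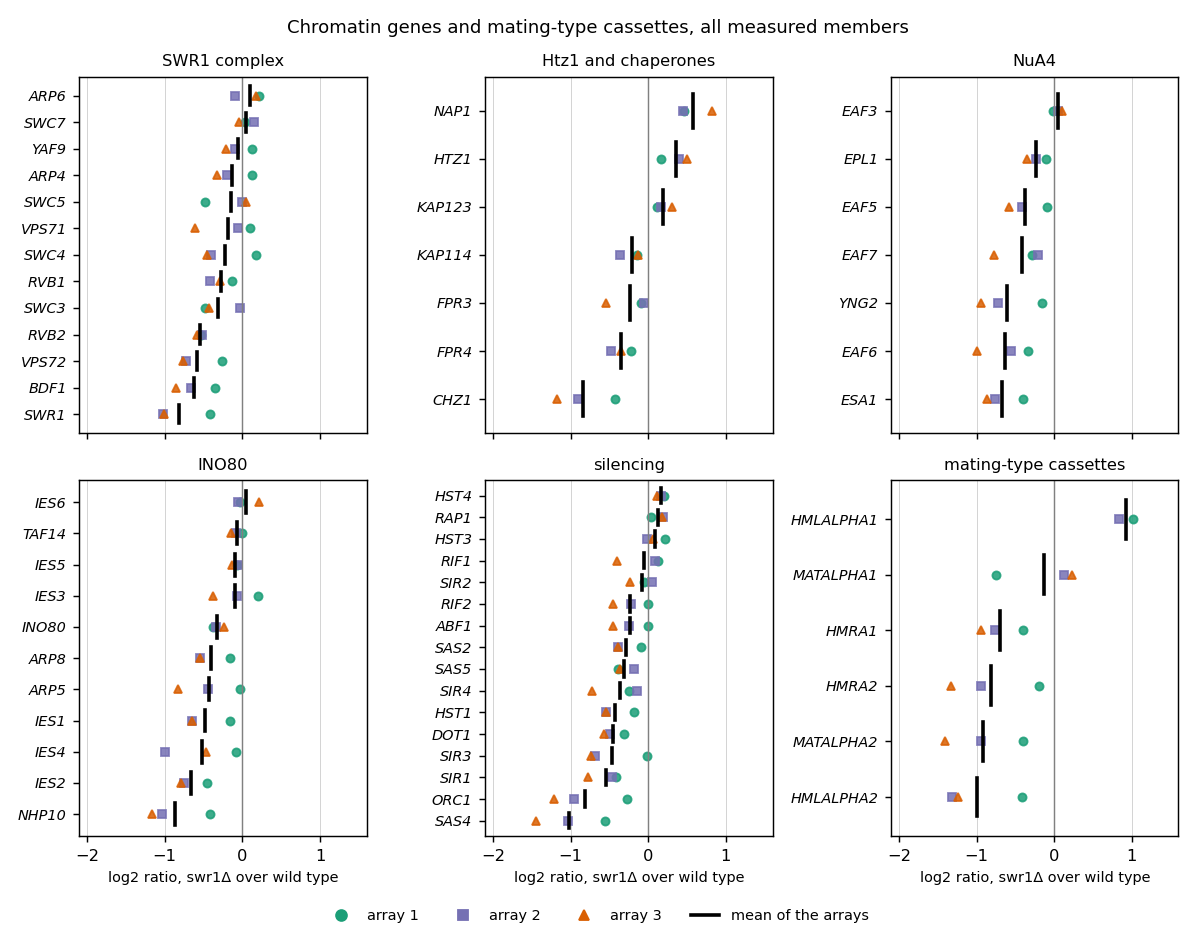
Points are the log2 ratios of each gene on arrays 1, 2 and 3 and black bars their mean, for all measured members of SWR-C, of Htz1 and its carriers, of NuA4, INO80 and the silencing factors, and for the mating-type cassette genes. SWR1 itself is the lowest of its complex (-0.82), CHZ1 and NAP1 lie on opposite sides of 0, and the cassette genes except the alpha1 genes lie below 0 on every array.

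Many genes for making ribosomes were lower in swr1Δ cells. Pre-ribosomal RNA is made by RNA polymerase I in the nucleolus, where the small-subunit processome and a series of assembly factors fold and cut it into the 40S and 60S subunits. Of 80 genes for the small-subunit processome and 40S assembly, 40 were lower and 2 higher, with a median of -0.53. Of 87 genes for 60S assembly, 36 were lower and 1 higher, with a median of -0.45. Joined, 76 of 167 were lower, where 10.9% of all features were. Of the 25 called features with the lowest means, 14 belonged to these lists.

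FYV7, needed to process the precursor of 18S rRNA, had the lowest mean of the called features. It read -0.90, -1.47 and -1.89, and the mean was -1.42 ± 0.49 (adjusted p = 0.0217), or 2.68-fold lower. UTP14, which activates the helicase Dhr1 (ECM16, -0.66) in the processome, read -1.52, -0.98 and -1.38 (-1.30 ± 0.28, adjusted p = 0.0217), so that unlike most of the group it was lowest on array 1. KRR1, a KH-domain protein of 40S assembly, read -0.80, -1.27 and -1.81 (-1.29 ± 0.50), and EFG1 (-1.26), RRP36 (-1.17), BUD21 (-1.17) and SAS10 (-1.16) followed. The box C/D snoRNP proteins NOP56 (-0.66) and NOP58 (-0.55) and the pseudouridine synthase CBF5 (-0.74) were lower too. The exceptions were SNU13, which binds both box C/D and U4 RNA (0.76, 0.91 and 0.61 on the arrays, 0.76 ± 0.15, adjusted p = 0.0225), and UTP22 (0.50 ± 0.22, adjusted p = 0.0384).

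On the 60S side RRP14 was lowest, at -0.67, -1.62 and -1.93 (-1.40 ± 0.66, adjusted p = 0.0227). NOP15 (-1.21), RRP15 (-1.16), CGR1 (-1.16) and NOP53 (-1.14), which act on 27S or 7S pre-rRNA, were at similar ratios. NOP53 read -0.93 already on array 1, whereas CGR1 read -0.33 there and -1.84 on array 3. TIF6, which keeps the subunits from joining too early, was the exception (0.62 ± 0.25, adjusted p = 0.0269). The medians of the 40S list were -0.20, -0.55 and -0.76 on arrays 1, 2 and 3, and those of the 60S list -0.14, -0.52 and -0.65. Without array 1, 2 or 3, 126, 28 and 27 of the 167 genes were lower.

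**Figure D3:**
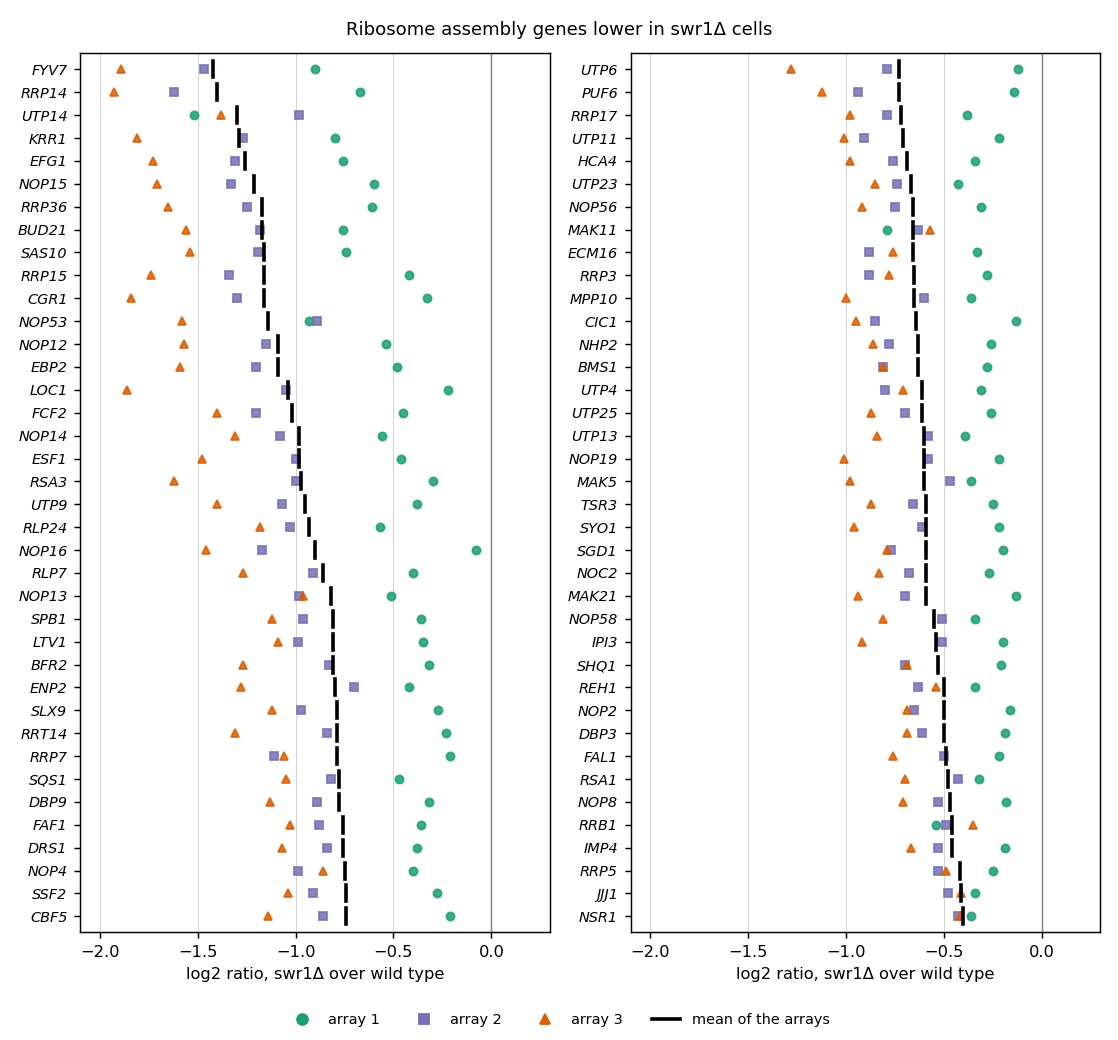
Points are log2 ratios on arrays 1, 2 and 3 and black bars the mean, for the 76 ribosome assembly genes that were lower in swr1Δ cells, ordered by mean from FYV7 (-1.42) to NSR1 (-0.40). All points lie below 0, array 1 is nearest to 0 for most genes, and array 3 is farthest for most of those with the lowest means.

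Of 40 genes for RNA polymerases I and III and their factors, 11 were lower and 5 higher (median -0.33). The lower ones were led by RPA34, a subunit of polymerase I, at -0.42, -1.23 and -1.57 (-1.08 ± 0.59, adjusted p = 0.0237), with RRN9 (-0.86), RPA43 (-0.77) and the TFIIIC subunit TFC3 (-0.66). The higher ones held RPA14, also of polymerase I, at 0.93, 0.81 and 0.69 (0.81 ± 0.12, adjusted p = 0.0217), with RPB8 (0.60) and RPA12 (0.58), so subunits of the same enzyme moved in both directions. NSI1, which binds the rDNA terminator, was among the lowest features overall (-1.10 ± 0.45, adjusted p = 0.0227). The nuclear exosome, which trims pre-rRNA and degrades nuclear RNA, had 5 of 17 genes lower and 0 higher, with TRF5 (-0.78), LRP1 (-0.74) and MPP6 (-0.69) lowest. tRNA modification had 6 of 34 lower (17.6%) and 1 higher, where 10.9% of all features were lower. THG1, which adds the extra G to histidine tRNA, was at -0.76.

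The structural proteins of the cytosolic ribosome went the other way. Of 73 genes for the large subunit 12 were higher and 2 lower (median 0.20), and of 52 for the small subunit 12 were higher and 1 lower (median 0.13). Their array medians did not follow the amplitude of the arrays: for the large subunit they were 0.32, 0.20 and 0.11 on arrays 1, 2 and 3, and for the small subunit 0.29, 0.07 and 0.07. RPS29B read 0.82, 1.06 and 0.78 (0.89 ± 0.15, adjusted p = 0.0217), RPS28A 0.82, 0.74 and 0.80 (0.78 ± 0.04, adjusted p = 0.0217) and RPP1A of the stalk 0.61, 0.93 and 0.67 (0.74 ± 0.17, adjusted p = 0.0227). All 5 stalk genes measured, which form the site that recruits elongation factors, were higher (RPP0, RPP1A, RPP1B, RPP2A and RPP2B, median 0.59), a group chosen after its values were seen. The genes that fell were RPL35A (-0.57), RPL35B (-0.62) and RPS17B (-0.51). Most ribosomal proteins are encoded by near-identical gene pairs, so values of paired genes may share signal. Many of these genes are also short, and among the 542 shortest genes by reference length (median 372 bases) 117 were higher and 32 lower, with a median of 0.13. Over all features 11.2% were higher and 10.9% lower. The part of gene length was not tested in this result, nor in the other lists that hold short genes.

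Of 13 regulators of ribosome genes, DOT6, a repressor of ribosome assembly genes, was higher (0.33, 0.39 and 1.00 on the arrays, 0.58 ± 0.37, adjusted p = 0.0444). The others did not pass, among them the DOT6 relative TOD6 (0.20), STB3 (0.18), SFP1 (0.06), FHL1 (-0.24) and IFH1 (-0.07). In translation, 7 of 41 factor genes were higher (17.1%) and 5 lower (12.2%), against 11.2% and 10.9% of all features. Whether paired factor genes such as TIF1 and TIF2 share signal was not tested. The higher ones included HYP2 (0.72), TIF1 (0.67), TIF2 (0.59), TEF2 (0.56) and SUI1 (0.46). The initiation factor genes TIF35 (-0.77), TIF3 (-0.58) and GCD6 (-0.56) were lower. Mitochondrial ribosomal proteins differed from the cytosolic ones, with 17 of 70 lower and 1 higher (median -0.21). MRPS17 was lowest (-0.59, -1.18 and -1.16, -0.97 ± 0.34, adjusted p = 0.0225), followed by MRPL24 (-0.89) and MRP7 (-0.81).

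Many cell wall genes were higher in swr1Δ cells. The yeast wall is a layer of glucan and chitin that carries mannoproteins, most of them bound through a GPI remnant or, for the Pir proteins, directly to glucan. Of 49 genes for wall proteins and wall synthesis, 29 were higher and 0 lower, where 11.2% of all features were higher, and the median was 0.58 (0.23, 0.74 and 0.85 on arrays 1, 2 and 3). YNL190W, a secreted hydrophilic protein, read 0.84, 1.32 and 1.45 (1.21 ± 0.32, adjusted p = 0.0217). CWP2, a major GPI mannoprotein, read 0.54, 1.37 and 1.36 (1.09 ± 0.47, adjusted p = 0.0227), and CCW12, which stabilises the wall at growth sites, 0.43, 1.29 and 1.20 (0.98 ± 0.47, adjusted p = 0.0230). CCW22 (1.06), TOS1 (1.00), the flocculin FLO11 (0.98), PRY2 (0.96), the glucanase SCW10 (0.95) and CCW14 (0.95) were raised by a similar amount. The Pir protein genes were higher as well, namely CIS3 (0.80), PIR1 (0.76), HSP150 (0.75) and PIR3 (0.57).

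Genes of the mother-daughter septum were split. Of 23 daughter-specific and septum genes, 8 were higher and 1 lower (median 0.27). CTS1, the chitinase that opens the septum, read 0.65, 1.32 and 1.43 (1.14 ± 0.42, adjusted p = 0.0217), EGT2 0.77, 1.17 and 1.17 (1.03 ± 0.23), and DSE2, a glucanase of the daughter side, 0.69, 1.19 and 1.22 (1.03 ± 0.30). PRY3 (1.01), SUN4 (0.90), PIR1, SCW11 (0.64) and DSE4 (0.43) also rose, and SIC1, the inhibitor of S-phase cyclin kinase, fell (-0.53). The members that rose code for secreted wall proteins.

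Of 28 TIR, DAN and PAU genes, a family of small wall mannoproteins induced by cold or lack of oxygen and partly located near chromosome ends, 15 were higher and 0 lower, and all had a mean above 0 (median 0.58). TIR2 read 0.83, 1.29 and 1.01 (1.04 ± 0.23, adjusted p = 0.0217), DAN1 0.87, 1.36 and 0.77 (1.00 ± 0.31, adjusted p = 0.0217) and TIR1 0.71, 1.23 and 0.65 (0.87). PAU14 ranged more widely, at 0.21, 1.47 and 0.81 (0.83 ± 0.63, adjusted p = 0.0429). PAU genes are close to identical, so their probes cannot be counted as separate genes. The proteins of this family are small, and the part of gene length was not tested here either. Without array 1, 2 or 3, 27, 3 and 11 of the 28 were higher, and 43, 13 and 18 of the 49 wall genes.

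**Figure D4:**
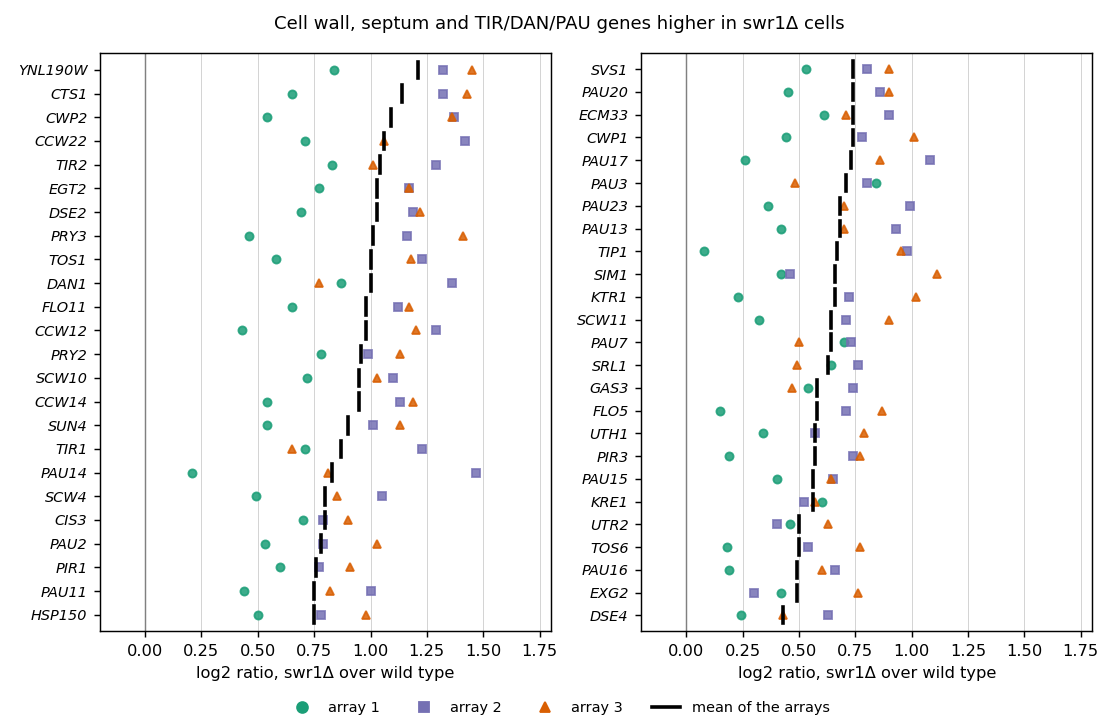
Points are log2 ratios on arrays 1, 2 and 3 and black bars the mean, for the cell wall, septum and TIR/DAN/PAU genes that were higher in swr1Δ cells, ordered by mean from YNL190W (1.21) to DSE4 (0.43). All points lie above 0, and array 1 is lowest for most genes.

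Genes that deliver wall and membrane proteins were higher in part. Of 30 genes of the unfolded protein response and of folding in the endoplasmic reticulum (ER), 8 were higher and 1 lower (median 0.25). This is 26.7% higher, against 11.2% of all features. IRE1, the sensor of unfolded protein, read 0.74, 0.99 and 1.01 (0.92 ± 0.15, adjusted p = 0.0217). HAC1, the transcription factor whose RNA Ire1 splices, read 0.20, 1.01 and 1.53 (0.91 ± 0.67, adjusted p = 0.0394). The translocon genes SEC61 (0.58, 0.98 and 1.04, 0.86 ± 0.25), SSH1 (0.82) and SBH1 (0.74) and the oligosaccharyltransferase genes OST3 (0.72), OST1 (0.64) and SWP1 (0.50) made up the rest, and YOS9 fell (-0.53). The members that rose thus belonged to translocation and glycosylation as well as to the sensor pathway. The list of vesicle coats, which also holds exocyst and SNARE genes, was even, with 5 higher and 5 lower of 46. This is 10.9% each way, against 11.2% higher and 10.9% lower of all features. Its higher members included the COPII genes SEC31 (0.65), SEC23 (0.56), SEC24 (0.46) and SAR1 (0.40). The lower ones were the exocyst genes SEC10 (-0.72), SEC6 (-0.64) and EXO70 (-0.57) and the SNARE genes SEC9 (-0.83) and SSO2 (-0.37). COPII (4 of 7 genes measured higher, 0 lower) and the exocyst (3 of 8 lower, 0 higher) were set apart after their values were seen. Their counts are therefore no support for a contrast between them.

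Groups put together after the values were seen describe the secretory route further. Of 49 genes for adding sugars to proteins 16 were higher and 1 lower (median 0.35), led by DPM1, the dolichol phosphate mannose synthase (0.42, 1.09 and 1.18, 0.90 ± 0.42), VRG4, the GDP-mannose carrier of the Golgi (0.85), OST5 (0.84) and MNN2 (0.82). Of 24 genes for GPI anchors 7 were higher and 0 lower (median 0.29), with GAB1 (0.81), LAS21 (0.78) and GPI16 (0.76) highest. Of 27 genes for ceramides and sphingolipids 9 were higher and 1 lower, with AUR1, the inositolphosphorylceramide synthase, at 1.02 and the regulators ORM2 and ORM1 at 0.79 and 0.71. The opposite held for vesicle capture and sorting. Of 47 genes for Golgi tethers, their GTPases and SNAREs 19 were lower and 1 higher (median -0.32), with the golgin SGM1 at -0.68, -0.93 and -1.39 (2-fold lower, SD 0.36 on the log2 scale) and the GTPase YPT6 at -0.98. Of 20 genes of the ESCRT machinery, which bends membranes inward at endosomes, 6 were lower and 0 higher, with CHM7 (-0.69, -1.07 and -1.68, -1.15 ± 0.50) and VPS20 (-1.11) lowest. Since these groups were chosen with the values known, their counts describe them and are no support.

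Genes of glucose metabolism were higher where they passed. All 25 glycolysis and fermentation genes had a mean above 0, and 12 were higher (median 0.49, or 0.19, 0.52 and 0.73 on arrays 1, 2 and 3). ALD6, cytosolic acetaldehyde dehydrogenase, read 1.11, 0.62 and 0.83 (0.85 ± 0.24, adjusted p = 0.0225) and was highest on array 1. TDH2 read 0.30, 1.18 and 0.94 (0.81 ± 0.46, adjusted p = 0.0288), CDC19, pyruvate kinase, 0.42, 1.24 and 0.73 (0.80 ± 0.42, adjusted p = 0.0269), and PDC1, pyruvate decarboxylase, 0.47, 0.73 and 0.86 (0.69 ± 0.19, adjusted p = 0.0227). ENO1 (0.15), GLK1 (0.09) and ADH3 (0.11) stayed near 0. The isozymes TDH1, TDH2 and TDH3, PDC1, PDC5 and PDC6, and ENO1 and ENO2 are alike in sequence and may share signal. Without array 1, 2 or 3, 22, 1 and 4 of the 25 genes passed.

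Hexose transporters and their regulators had 8 of 21 genes higher and 0 lower (median 0.46). HXT2 read 0.51, 0.66 and 0.81 (0.66 ± 0.15, adjusted p = 0.0227), HXT8 0.61, 0.72 and 0.64 (0.66 ± 0.06, adjusted p = 0.0227), and HXT3, a low-affinity carrier used at high glucose, 0.18, 0.89 and 0.83 (0.63 ± 0.39, adjusted p = 0.0394). HXT7 (0.59), HXT4 (0.56), HXT5 (0.53), HXT1 (0.50) and HXT13 (0.46) completed the group, in which carriers for high and for low glucose stood together. The regulators STD1 (-0.35), MTH1 (0.06) and RGT1 (0.45) did not pass. Other carbon genes changed less. Gluconeogenesis and the glyoxylate cycle had 1 of 14 higher (the acetate carrier ADY2, 0.53), the galactose genes 1 of 8 (GAL80, 0.45), the TCA cycle 1 of 18 (SDH4, 0.77), and trehalose and glycogen genes 3 higher and 1 lower of 19, with GDB1, the debranching enzyme, at 0.66, 0.92 and 0.76 (0.78 ± 0.13). Among genes of respiration and ATP synthase 5 of 40 were higher and 3 lower, or 12.5% and 7.5% against 11.2% and 10.9% of all features. The small ATP synthase subunit gene ATP15 read 0.75, 1.20 and 1.34 (1.09 ± 0.31, adjusted p = 0.0217).

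**Figure D5:**
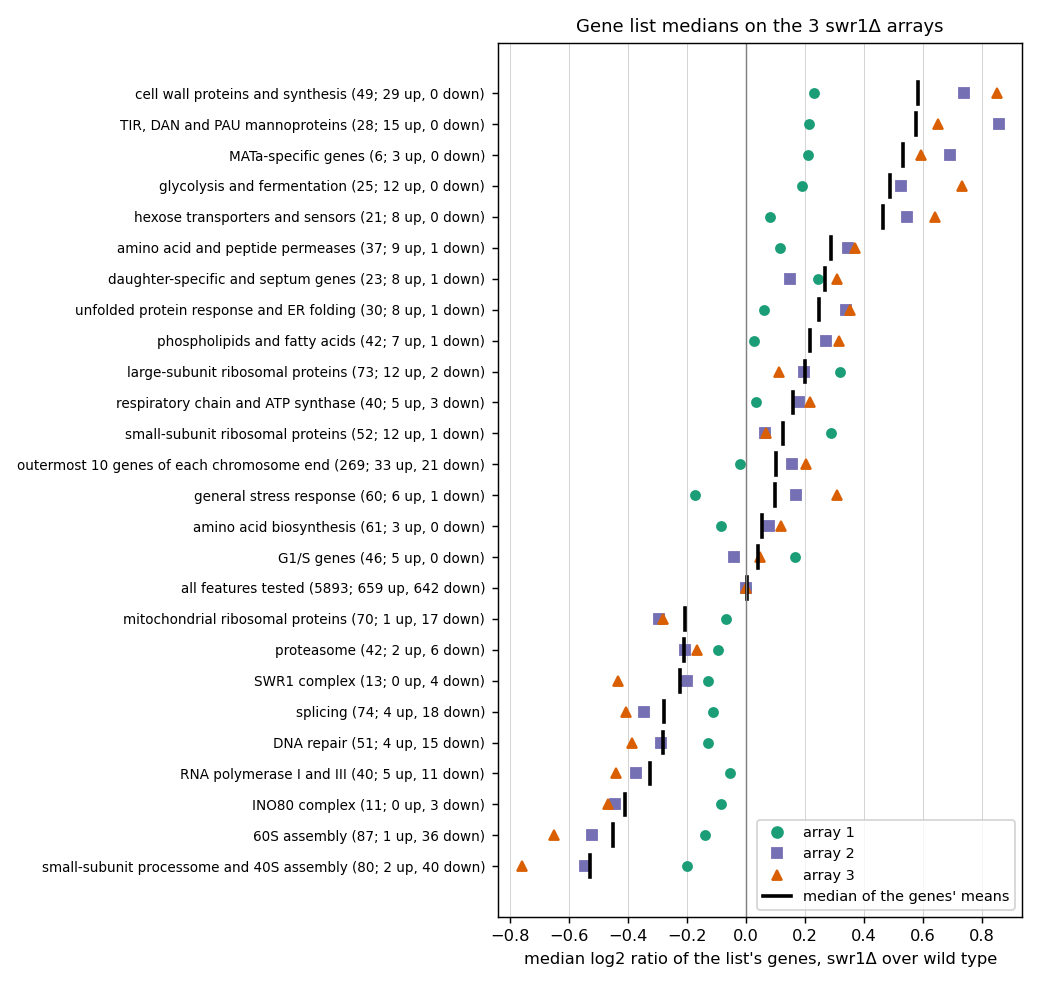
Median log2 ratio of the genes of 25 lists and of all features on arrays 1, 2 and 3 (points) and of the genes' means (black bars), with the number tested and the numbers higher (up) and lower (down) in brackets. The cell wall list (0.58) and the small-subunit processome and 40S assembly list (-0.53) lie at the ends, arrays 2 and 3 lie farther from 0 than array 1 for most lists, and the ribosomal protein lists are among those in which array 1 lies farthest from 0.

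Carriers in the plasma membrane and the vacuole were higher in part. Of 37 amino acid and peptide permeases, 9 were higher (24.3%) and 1 lower (median 0.29), where 11.2% of all features were higher. PTR2, which imports dipeptides and tripeptides, read 0.79, 1.46 and 1.55 (1.27 ± 0.41, adjusted p = 0.0217), and the oligopeptide carrier OPT1 (0.83), AVT3 (0.75), MMP1 (0.57) and PUT4 (0.54) also rose, while DAL5 fell (-0.44). The membrane protein SNA2 (0.80, 1.37 and 1.77, 1.31 ± 0.49) and AVT6, which exports acidic amino acids from the vacuole (1.06 ± 0.34), were among the 25 highest features, as were TVS1 (1.11 ± 0.19) and VVS1 (1.08 ± 0.58). The genes for making amino acids changed less, with 3 of 61 higher (4.92%) and 0 lower. Sulfate and methionine genes had 6 of 36 higher (16.7%) and 0 lower, MMP1 and MUP1 (0.53) among them. Of 22 thiamine genes 6 were higher and 0 lower, with the carrier THI7 (0.92) and THI4 (0.71), and THI11 (0.77), which has close to identical copies. In phosphate metabolism 4 of 26 were higher (15.4%) and 1 lower, with the phosphate carrier PHO91 (0.81) and VTC1 (0.81) highest. The shares higher for sulfate and phosphate genes lay not far from the 11.2% of all features.

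Of 49 genes for iron, copper and zinc, 9 were higher and 2 lower. The vacuolar exporters SMF3 (0.96) and ZRT3 (0.96, n = 2, arrays 2 and 3 only), the mannoprotein FIT3 that binds siderophores (0.94) and the ferroxidase FET3 (0.77) were highest. BSD2, which sends metal carriers to the vacuole for breakdown, was lower, at -2.17, -0.69 and -0.92 (-1.26 ± 0.80, adjusted p = 0.0275), and without array 1 the mean was -0.80. With the arrays scaled to a common spread BSD2 did not pass (adjusted p = 0.0865). AFT2, an activator of iron genes, was lower as well (-0.46). Among lipid genes the shares that were higher, 16.7% for phospholipids and fatty acids and 14.3% for ergosterol, lay not far from the 11.2% of all features. Of 42 phospholipid and fatty acid genes 7 were higher and 1 lower (median 0.22), with the elongases ELO3 (0.67) and ELO2 (0.64), and of 28 ergosterol genes 4 were higher and 1 lower, with NCP1 (0.74), ERG3 (0.69) and ERG2 (0.68) against IDI1 (-0.63).

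Mating genes were examined because the labels give no mating type. All 6 MATa-specific genes measured had a mean above 0 and 3 were higher. MFA2, which encodes the a-factor, read 0.44, 1.36 and 1.47 (1.09 ± 0.57, adjusted p = 0.0230), AGA2, an agglutinin subunit, 0.65 ± 0.30 (adjusted p = 0.0275), and STE2, the alpha-factor receptor, 0.48 ± 0.17 (adjusted p = 0.0371). MFA1 read 0.11, 1.08 and 0.57 (adjusted p = 0.0615). Of the MATalpha genes SAG1 passed narrowly (0.51, adjusted p = 0.0499) and AFB1 did not pass (0.36, adjusted p = 0.0891). STE3, the a-factor receptor, read -1.03, 0.01 and 0.14 and MF(ALPHA)2 -0.86, 0.20 and -0.85. Of 8 genes that mature or export the a-factor, STE24 (0.68, 1.09 and 1.15, 0.97 ± 0.26, adjusted p = 0.0217), RCE1 (0.58) and STE14 (0.53) rose. In the pheromone response, 3 of 30 were higher, STE12 (0.68), PRM7 (0.67) and SST2 (0.50), which is 10% against 11.2% of all features. Ratios do not show which cells a culture held. The markers of haploid cells (8 genes), of sporulating diploids (6) and of stationary phase (6) had 0 calls (2, 0 and 0 at an unadjusted p under 0.05), with means between -0.45 and 0.27, -0.20 and 0.22, and -0.56 and 0.56.

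Chromosome ends were described because of the role of Htz1 beside silent chromatin. Among the outermost 5 genes of each end, 21 of 128 were higher and 5 lower (median 0.22). Among the outermost 10, 33 of 269 were higher and 21 lower (median 0.10, or -0.02, 0.16 and 0.20 on arrays 1, 2 and 3), and 12.3% higher lies near the 11.2% of all features. Among the outermost 20, 69 of 547 were higher and 43 lower (median 0.08). The higher genes at the very ends included PAU genes and the helicase genes of the Y' elements, of which YRF1-1 read 0.22, 0.66 and 0.85 (0.58 ± 0.32, adjusted p = 0.0385) and YRF1-2 0.22, 0.75 and 0.88 (0.62 ± 0.35, adjusted p = 0.0372). Y' elements are repeated at many ends with close to identical sequence. Without TIR, DAN and PAU genes, the outermost 5 held 16 higher and 5 lower of 113 (median 0.12, or -0.01, 0.24 and 0.21 on arrays 1, 2 and 3); in both sets array 1 lay near 0.

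Chromosome segregation and the cytoskeleton had more genes lower than higher. Of 42 kinetochore genes 7 were lower (16.7%) and 1 higher, where 10.9% of all features were lower. KRE28, a partner of Spc105, read -0.62, -0.93 and -1.34 (-0.96 ± 0.36, adjusted p = 0.0227), MCM22 -0.92, NDC80 -0.42, -1.14 and -0.99 (-0.85 ± 0.38) and the Aurora partner BIR1 -0.73, while SPC25, which is in 1 complex with Ndc80, was higher (0.59 ± 0.15). Of 38 genes for microtubules, dynein and dynactin 9 were lower (23.7%) and 1 higher. JNM1 of dynactin, which places the spindle, read -0.86, -1.26 and -1.52 (-1.21 ± 0.33, adjusted p = 0.0217). CNM67 (-0.76) and SPC110 (-0.74) of the spindle pole body were lower. So were YKE2 (-1.03) and GIM4 (-0.94) of prefoldin, which helps fold tubulin and actin. Of 5 prefoldin genes measured, a group chosen after its values were seen, 2 were lower and 0 higher, with means from -1.03 to 0.345. In actin and polarity the counts were even (6 lower and 5 higher of 59), with tropomyosins TPM2 (-0.73, -1.15 and -1.23, -1.04 ± 0.27) and TPM1 (-0.55) lower and VRP1 (0.80) and PFY1, profilin (0.67), higher. Among cell cycle groups, G1/S genes had 5 of 46 higher and 0 lower. The G2/M cluster had 2 of 22 higher. These shares were 10.9% and 9.09%, against 11.2% of all features. Genes for MCM and origin licensing had 2 of 14 lower (ORC1 and ORC3, -0.55), or 14.3% against 10.9% of all features.

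DNA repair had 15 of 51 genes lower (29.4%) and 4 higher (median -0.28), where 10.9% of all features were lower. Lower genes spanned the checkpoint, with RAD9 at -0.28, -1.03 and -1.06 (-0.79 ± 0.44, adjusted p = 0.0287) and RAD17 (-0.52) and DDC1 (-0.42), the nuclease gene MUS81 (-0.73), end joining with YKU70 (-0.67) and YKU80 (-0.44), and nucleotide excision with RAD4 (-0.53) and RAD7 (-0.49). The higher genes were the helicase SRS2 (1.29, 0.55 and 1.19, 1.01 ± 0.40, adjusted p = 0.0227), TOP3 (0.50), and SML1 (0.95) and HUG1 (0.90), a pair of small inhibitors of ribonucleotide reductase that are neighbours on chromosome XIII. Both are short, and the part of gene length was not tested for them or for other short genes named here.

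RNA metabolism was lower in part. Of 74 splicing genes 18 were lower (24.3%) and 4 higher (median -0.28), where 10.9% of all features were lower. IST3 (-0.96), SLU7 (-0.88) and PRP3 (-0.83) were lowest, and the Sm protein gene SMX3 (0.73, 1.12 and 1.22, 1.03 ± 0.26, adjusted p = 0.0217) highest. NTR2, needed to take spliceosomes apart, was among the 25 lowest features (-1.05 ± 0.48). In mRNA decay 5 of 27 were lower (18.5%) and 2 higher (7.41%), but the median of the list was 0.06, so it was not lower as a whole. The lower genes included UPF3 of nonsense-mediated decay at -0.53, -0.96 and -1.56 (-1.02 ± 0.52, adjusted p = 0.0230) and the decapping genes DCP1 (-0.78) and DCP2 (-0.53). RNA polymerase II, Mediator and TFIID were even (5 higher and 5 lower of 56), or 8.93% each way against 11.2% and 10.9% of all features. Elongation factors, grouped after their values were seen, had 12 of 33 lower and 2 higher. RTF1 of the Paf1 complex read -0.67, -1.33 and -1.42 (-1.14 ± 0.41, adjusted p = 0.0217), and POB3 of the histone chaperone FACT read -0.88, -0.87 and -0.88 (-0.87 ± 0.01, adjusted p = 0.0217), the same on each array.

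In protein quality control, of 42 proteasome genes 6 were lower and 2 higher. The lid gene RPN8 read -0.81, -1.50 and -1.54 (-1.28 ± 0.41, adjusted p = 0.0217) and RPN5, measured on arrays 2 and 3, -0.83 and -0.95 (-0.89 ± 0.09, n = 2), while UMP1, an assembly factor, rose (0.87 ± 0.30). Among 36 chaperone genes 6 were lower and 1 higher, and the lower ones held HSP82 (-0.59, -0.59 and -0.47, -0.55 ± 0.07, adjusted p = 0.0234) and HSC82 (-0.48), the near-identical Hsp90 genes, with the partners CDC37 (-0.73), CPR7 (-0.53) and CPR6 (-0.48). General stress genes had 6 of 60 higher and 1 lower, with DDR2 at 0.63. Redox genes had 4 of 36 higher and 1 lower, with SOD1 (0.73) and TRX1 (0.72) against YAP1 (-0.60). The shares higher in these lists, 10% and 11.1%, lay near the 11.2% of all features. Autophagy and vacuolar hydrolases had 6 of 43 lower (14%), such as ATG12 (-0.87), and 4 higher (9.3%), such as CPS1 (0.85) and PEP4 (0.69). These shares were not far from those of all features. Of 19 V-ATPase genes 2 were higher, the proteolipids VMA3 (0.88) and VMA11 (0.87), and 2 lower, VMA22 (-0.86) and VMA8 (-0.63), which is 10.5% each way and near the 11.2% and 10.9% of all features. Mitochondrial import had 4 of 38 higher (10.5%), TOM7 (0.81), TIM17 (0.78), TOM6 (0.76) and SOM1 (0.57), and 5 lower (13.2%), with MIA40 at -0.95. Nuclear pore genes had 5 of 31 higher (16.1%) and 4 lower (12.9%), the latter including the basket proteins MLP1 (-0.77) and MLP2 (-0.44). Peroxisome genes had 1 of 44 higher, the acyl-CoA oxidase POX1 (0.90), and 5 lower (11.4%). The shares lower in these lists were not far from the 10.9% of all features.

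Of the 1179 named genes that passed, 519 belonged to at least 1 of the lists and 660 to none. Of the 25 features with the highest means, 9 were probes without a gene symbol and 7 were wall, septum or TIR/DAN/PAU genes, and of the 25 lowest, 2 had no symbol. MSS116, a mitochondrial RNA helicase, was among the called features with the smallest p-values, at -0.90, -1.11 and -0.98 (2-fold lower, SD 0.11 on the log2 scale, adjusted p = 0.0217). Features measured on 2 arrays reached the largest ratios of all. ECM30 read 4.04 and 1.93 on arrays 1 and 2 (2.99 ± 1.49, n = 2, adjusted p = 0.0227) and FDO1 2.07 and 1.34 (1.71 ± 0.51, n = 2, adjusted p = 0.0217), and neither was measured on array 3. With the arrays scaled, ECM30 did not pass (adjusted p = 0.0560). PES4 read 0.26 on array 2 and -2.58 on array 3 and did not pass (-1.16 ± 2.01, n = 2, adjusted p = 0.201).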

How the data were processed

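Labelled cDNA of swr1Δ (Cy5) and wild-type (Cy3) yeast had been hybridised together on each array. The deposited log2 ratios (1 value for a probe on an array) had been normalised and centred by the authors, as array medians near 0 show. Scanning, background correction, normalisation and the reason for empty cells were not given in the sources used here. Without spot intensities, signal over background is unknown. The small number of arrays sets the precision.

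Of 6912 probes, 5446 had 1 gene symbol in the platform annotation, updated through the RefSeq gene table of assembly R64, which also gave gene order and length, and 5927 had a value on these arrays. Probes of 1 gene were averaged (19 genes). The mean ratio of the 3 arrays was tested against 0 with limma (version 3.58.1, lmFit and eBayes, R version 4.3.3), 2-sided, with Benjamini-Hochberg adjustment over 5893 features at 0.05. When the fit was tested on simulated data, in which 200 of 5893 features were changed, it had 4.87% false calls and recovered 86.4% of changes of 1 and 7.50% of changes of 0.5 on the log2 scale. The simulated arrays were alike and their noise was independent. The real arrays differ in amplitude and in how they correlate, and far more features were called, so these rates cannot be taken as those of the real data. Tables and plots were made in Python 3.11.15 (pandas 2.3.3, numpy 2.4.6, matplotlib 3.10.9).

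The comparison, the gene lists and the tests were chosen with earlier results of these data known. Lists are described by counts and medians, without a set test. Named genes were drawn from the 25 highest and lowest called features of 1 sign on each array, the members of the SWR-C, Htz1, histone, W303 and mating-type lists, the study's RT-PCR genes, up to 5 higher and 5 lower members of each other list, 3 neighbours of SWR1 on each side, 3 features each way measured on 2 arrays, and the 10 smallest p-values each way. Not every gene of this rule is named. Genes named beyond this rule, and the groups said to be so, were chosen after their values were seen. Alternatives were another set of arrays, filter, centring, scaling, array weight, prior or test, and leaving out each array. Promoter sequences were not used here.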

Additional observations from a re-analysis of the deposited data

How the results depend on the processing

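Against 1301 calls (659 higher, 642 lower), re-centring, a robust prior, the filter to features on every array, scaling, quantile normalisation and testing every probe on its own stayed within 1.5 times, at 1302 to 1658. The fit over all 7 arrays made 0 calls in either direction (795 at an unadjusted p under 0.05), array weights 3064 (1532 higher, 1532 lower), and averaging replicates 2 and 3 into 1 sample 428 (206 higher, 222 lower). The methods' t-test made 857 calls (487 higher, 370 lower) at the study's limits and 0 in either direction after Benjamini-Hochberg (1227 at an unadjusted p under 0.05). Leaving out 1 replicate gave 280 to 3135 calls, 125 to 1575 higher and 155 to 1560 lower, with the highest counts without replicate 1. Beside 76 lower ribosome assembly genes, the fit over all arrays gave 0, array weights 118, replicates 2 and 3 averaged 38 and leaving out 1 replicate 27 to 126. For the cell wall list (29 higher) these were 0, 42, 17 and 13 to 43, for TIR, DAN and PAU genes (15) 0, 27, 9 and 3 to 27, and for glycolysis (12) 0, 20, 4 and 1 to 22. The medians of these lists kept their sign under the alternatives run and moved by less than the SD of their array medians. That SD holds the gap between array 1 and the others, so leaving out an array could hardly exceed it. The fit over all arrays and the robust prior leave the means as they are. The size of these moves therefore says little about stability. The median of the outermost genes also kept its sign when 5 or 20 were taken or TIR, DAN and PAU genes left out. It moved by less than the SD of its own array medians, though on array 1 the median of the outermost 10 was -0.02. The cause of these changes in counts was not tested. Of the 272 genes named in the report that passed, and of those with a value, 153 of 270 still passed with replicates 2 and 3 averaged, 269 of 269 without replicate 1, 111 of 267 without replicate 2, 152 of 270 without replicate 3 and 266 of 272 with scaled arrays. No paired analysis was possible because only the arrays of 1 group enter the comparison and each already holds both strains. The planned description of promoter motifs was not run.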
